A study of Mus musculus with 6 samples.

Results

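The genes for the proteins of the cytosolic ribosome were examined in femur RNA from 3 phlebotomy libraries (mice that had blood removed) and 3 control libraries. Members were the protein-coding rows of the deposited scaled table whose symbols follow the pattern of Rpl or Rps plus a number, with Rpsa and the stalk genes Rplp0, Rplp1 and Rplp2, and without the Rps6k kinases. This gave 82 genes of 17409 protein-coding rows and 28533 rows in all, with 50 genes of the large subunit and 32 of the small subunit, spread over 19 chromosomes. Both groups were 12-week-old C57BL/6 mice labelled WT, and treatment was the only labelled difference between them. RNA came from femur prepared to enrich osteocytes, which are bone cells enclosed in the mineralised matrix, and the series asks how their transcriptome changes after haemorrhage. The labels used here do not state how much blood was removed or when the bone was taken, and they do not say that each library came from a separate animal, so a p-value here reflects spread among libraries that may be technical.

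A ribosome is built from ribosomal RNA and a fixed set of proteins, mostly 1 copy of each, so a cell that makes ribosomes needs these proteins in balanced amounts. Their mRNAs are short and abundant. In vertebrates most of them begin with a C followed by a run of pyrimidines, the TOP (terminal oligopyrimidine) motif, through which the kinase mTOR and the RNA-binding protein LARP1 control their translation and stability. Red blood cell precursors depend strongly on ribosome supply: in humans, loss of 1 copy of any of several ribosomal protein genes causes Diamond-Blackfan anaemia.

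The bases around the annotated start are shown because TOP is the sequence feature that these genes are known for. RefSeq promoter sequences (GRCm38.p6) matched 62 of the 82 genes by symbol. Unmatched genes that are described below were Rpl23a, Rpl29, Rpl3, Rpl7, Rplp1, Rps14, Rps20 and Rps27a. Each line holds the 30 bases before the annotated start and the 30 bases from it onward, 5′ to 3′ on the gene's strand, and capitals mark the run of C followed by at least 4 pyrimidines. Where a gene had several promoter entries, the entry with the longest run was printed. A printed start can therefore differ from the outer end of the gene.
Rps6 (chr4:86857338-86857397, minus strand): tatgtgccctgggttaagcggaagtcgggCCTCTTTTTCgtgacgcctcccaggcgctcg
Rps18 (chr17:33955636-33955695, minus strand): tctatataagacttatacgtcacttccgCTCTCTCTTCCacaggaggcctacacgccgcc
Rps27 (chr3:90213619-90213678, minus strand): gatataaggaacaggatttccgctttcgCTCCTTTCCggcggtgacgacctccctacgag
Rps26 (chr10:128626477-128626536, minus strand): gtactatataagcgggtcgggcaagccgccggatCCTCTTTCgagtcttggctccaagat
Rpl38 (chr11:114668550-114668609, plus strand): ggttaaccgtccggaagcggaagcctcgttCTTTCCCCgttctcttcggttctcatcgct
Rplp2 (chr7:141447621-141447680, plus strand): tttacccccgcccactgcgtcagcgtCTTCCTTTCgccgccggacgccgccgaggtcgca
Rps10 (chr17:27635215-27635274, minus strand): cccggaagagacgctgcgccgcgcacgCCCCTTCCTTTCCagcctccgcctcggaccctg
Rpl13a (chr7:45128716-45128775, minus strand): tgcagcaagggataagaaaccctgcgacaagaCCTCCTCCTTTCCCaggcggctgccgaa
Rpsa, Rplp0 and Rpl24 are shown as members whose window holds no such run within 10 bases of the annotated start. In Rpsa and Rplp0 a run lies farther downstream. Whether transcripts begin at the annotated start was not tested, so a missing run describes the annotated position only.
Rpsa (chr9:120127736-120127795, plus strand): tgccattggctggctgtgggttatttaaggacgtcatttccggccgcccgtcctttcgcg
Rplp0 (chr5:115559437-115559496, plus strand): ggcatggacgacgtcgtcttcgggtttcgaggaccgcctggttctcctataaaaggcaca
Rpl24 (chr16:55966245-55966304, plus strand): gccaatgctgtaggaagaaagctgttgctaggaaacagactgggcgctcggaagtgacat
A run of C followed by at least 4 pyrimidines, sense strand only and beginning within 10 bases of the annotated start, was present in 38 of 62 members (61.3%), against 34.4% of 27025 genes in the same table. Here and in the searches below, a gene counted when any of its entries held the letters. The letters CCGGAAGT, the core bound by ETS-family factors such as GABPA, were found on either strand in 12 of 62 members (19.4%), against 4.31% of all genes, in the 250 bases before and 50 bases after the start. TATAAA was found by the same search in 7 of 62 members (11.3%), against 15.7% of all genes. Read on the reverse strand, the ETS letters can share bases with a pyrimidine run, and a match describes the letters only. The 8 members printed with a run include high and low levels and large and small differences between groups, as given below.

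Libraries held 11219243 to 19015588 gene counts. Libraries are named by the number in their deposited column (1, 2 and 4). Columns beginning with P were read as phlebotomy and those beginning with N as control by elimination, which limits every comparison here. Phlebotomy 2 stood apart from its label: it held 2288 counts of a neomycin-resistance row, 920 of an EGFP row and 403 of a DsRed row, against at most 12, 6 and 1 in any other library, although all mice are labelled WT. Phlebotomy 1 stood apart in the level of the ribosomal protein genes themselves, so family values are given with and without both libraries. All 12 osteocyte markers were detected, and their summed level was 15029 to 26781 CPM in phlebotomy libraries, against 24509 to 51892 CPM in control libraries. Erythroid markers summed to 21782 to 31634 CPM in phlebotomy libraries and 14257 to 31151 CPM in control libraries, and neutrophil markers summed to 29866 to 45989 CPM in phlebotomy libraries and 21313 to 51504 CPM in control libraries, so blood-cell RNA was abundant in every library.

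The summed level of the 82 genes was higher in each phlebotomy library than in any control library, but most of the difference came from 1 library. The sum was 19060.5, 12444.3 and 13321.4 CPM in phlebotomy 1, 2 and 4, against 11617.5, 11571.8 and 11815.3 CPM in control 1, 2 and 4 (CPM, counts scaled to library size and adjusted by TMM, the trimmed mean of M values). The phlebotomy mean was 14942 ± 3594 CPM and the control mean 11668 ± 129 CPM (SD, n = 3 each), a ratio of 1.28. Control libraries lay within a coefficient of variation of 1.11%, whereas phlebotomy 1 was 1.63 times the control mean, phlebotomy 4 was 1.14 times and phlebotomy 2 was 1.07 times. As a share of unscaled gene counts, the family held 2.01%, 1.27% and 1.42% in phlebotomy 1, 2 and 4, against 1.05%, 1.11% and 1.16% in control 1, 2 and 4. In bulk RNA, a different number of cells of a type and a different amount of RNA per cell cannot be told apart.

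**Figure D1:**
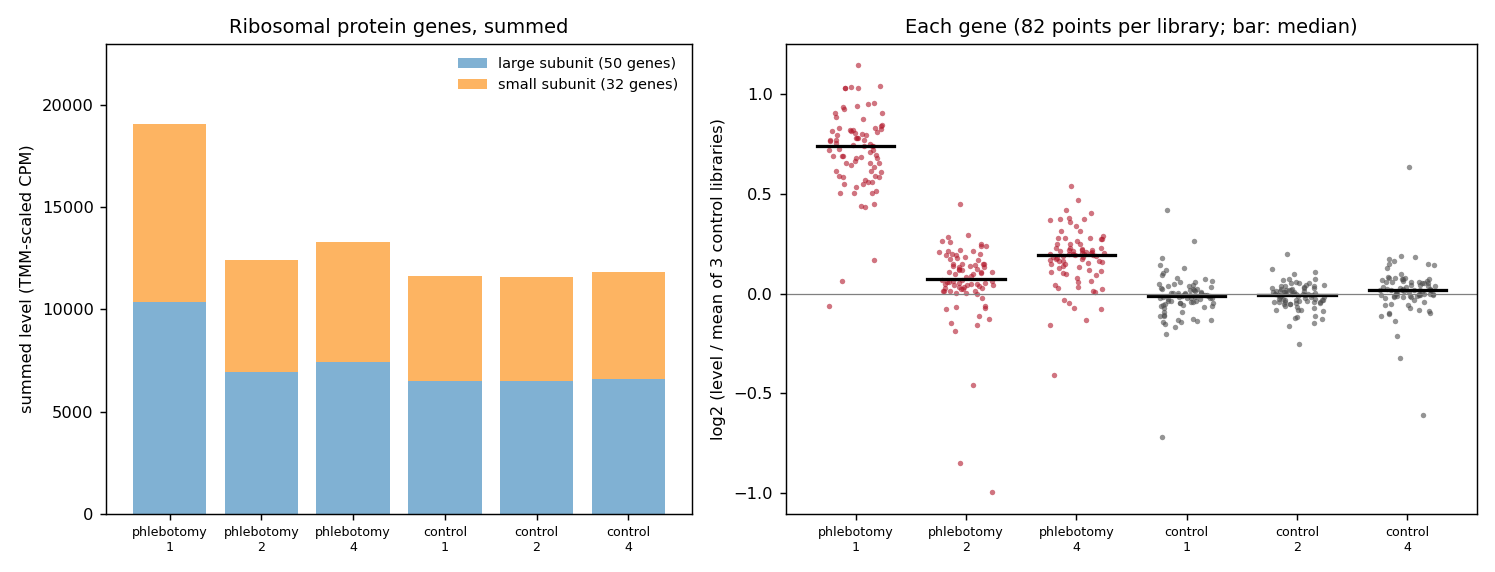
Left, summed TMM-scaled CPM of the 82 ribosomal protein genes in each library, stacked by subunit; right, log2 of each gene's level over the mean of the 3 control libraries, 1 point per gene with the median as a bar. Phlebotomy 1 has a median of 0.74, phlebotomy 2 of 0.08 and phlebotomy 4 of 0.19, and the 3 control medians lie at 0 within 0.02.

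Both subunits followed the same order of libraries. The large-subunit genes summed to 10353.9, 6927.0 and 7436.0 CPM in phlebotomy 1, 2 and 4, against 6508.3, 6494.4 and 6609.1 CPM in control 1, 2 and 4. The small-subunit genes summed to 8706.6, 5517.3 and 5885.4 CPM in phlebotomy 1, 2 and 4, against 5109.2, 5077.4 and 5206.3 CPM in control 1, 2 and 4. The ratio of the large to the small sum was 1.19, 1.26 and 1.26 in phlebotomy libraries, against 1.27, 1.28 and 1.27 in control libraries, so the balance shifted toward the small subunit in phlebotomy 1 and lay within 0.02 of the lowest control value in phlebotomy 2 and 4.

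Gene by gene, 81 of the 82 members had a fitted fold change above 0, but none passed the test. The median log2 fold change (phlebotomy over control) was 0.37, with an interquartile range of 0.28 to 0.44, against a median of -0.0028 and an interquartile range of -0.26 to 0.30 over all 18838 genes tested, of which 49.8% lay above 0. All 82 members passed the filter on low counts and were in the fit. With edgeR's quasi-likelihood test and Benjamini-Hochberg adjustment over all genes, 0 members were called at 0.05, in a comparison that called 3 genes in all (0.0159%), and the smallest adjusted p of a member was 0.216. At an unadjusted p under 0.05, 30 of 82 members (36.6%) were higher and 0 lower, against 7.01% of all genes higher and 9.42% lower. DESeq2, which gave 2 members no adjusted p, also called 0 members where it called 284 genes (1.51%), and had 32 members higher at an unadjusted p under 0.05, against 6.39% of all genes.

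**Figure D2:**
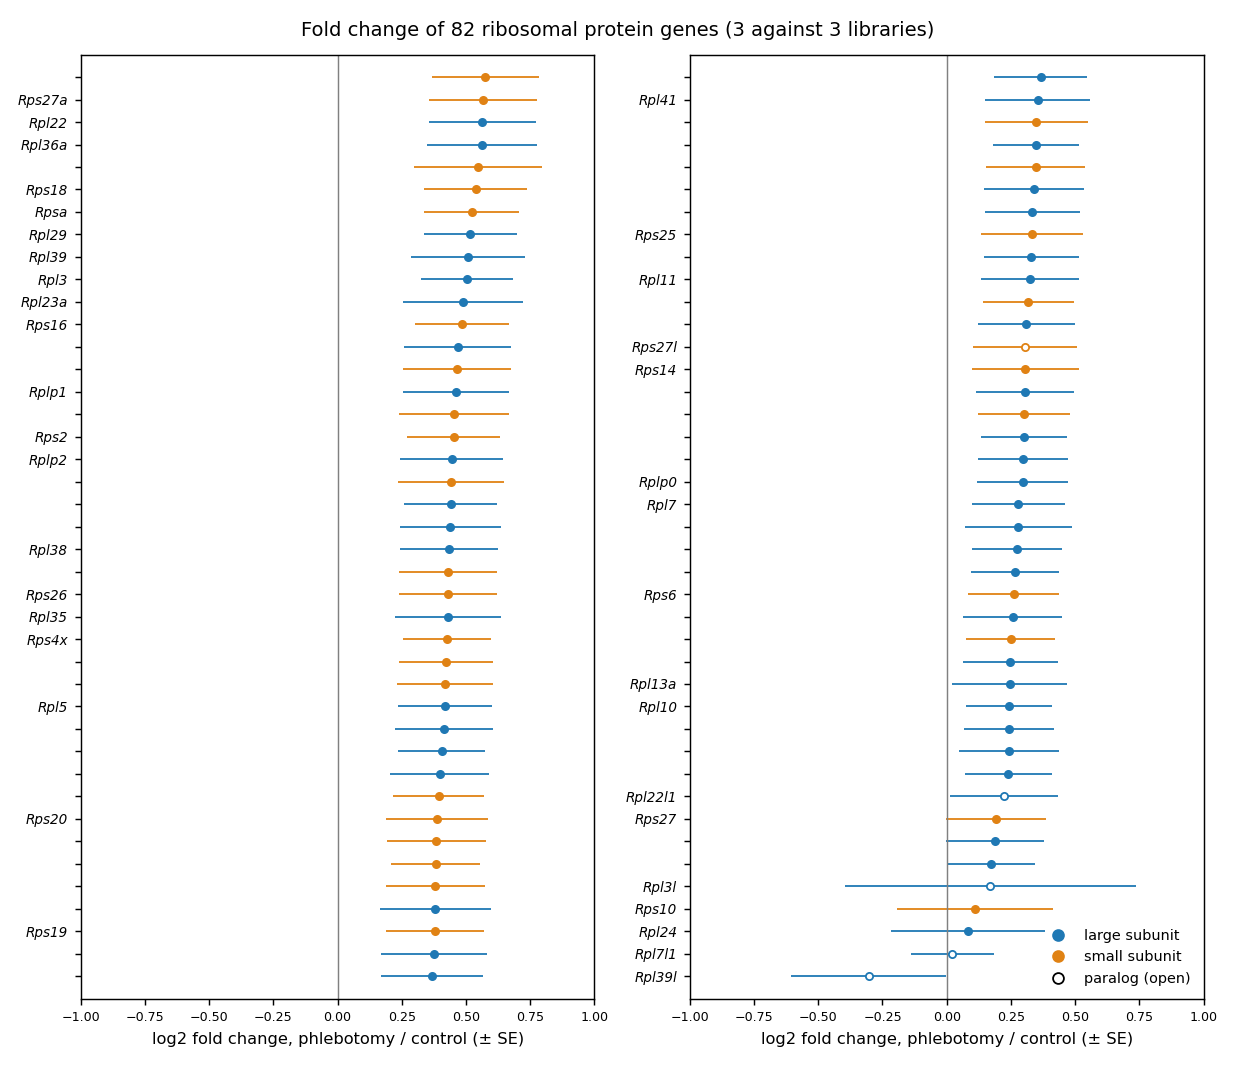
Log2 fold change (phlebotomy over control, edgeR) of each of the 82 genes with its standard error, ordered by size and coloured by subunit, with paralogs as open circles. Genes described in the text are labelled, except Rps3. Rpl39l has the lowest value (-0.30), and the SD of the values over genes is 0.136, beside a median standard error of 0.191.

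The fold changes of the members were closer to each other than those of all genes were, which are not matched for level. The SD of the fitted log2 fold changes was 0.136 over members and 0.490 over all genes tested. In control libraries, the 70 members with a mean of at least 50 CPM had a median SD of 0.063 on the log2 scale, against 0.171 for the 3920 genes tested at that level. For the 32 small-subunit genes the median log2 fold change was 0.39 and 16 had an unadjusted p under 0.05, and for the 50 large-subunit genes the median was 0.33 and 14 did.

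The order of the libraries was shared by most members. In 79 of 82 members phlebotomy 1 was the highest of the 6 libraries, against 25.3% of all genes tested, and the exceptions were Rpl39l, Rpl7l1 and Rps10. Phlebotomy 4 lay above all control libraries for 67 members (81.7%), against 30.1% of all genes. Phlebotomy 2 did so for 49 members (59.8%), against 21.3% of all genes, and both did so for 45 (54.9%), against 12.1%. All 3 phlebotomy libraries lay above all 3 control libraries for 45 members (54.9%), against 10.1% of all genes. The opposite separation was found for 0 members, against 11.2% of all genes.

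The size of the difference depended on phlebotomy 1. Without it, the median log2 fold change of the members was 0.16, with 74 of 82 above 0. At an unadjusted p under 0.05, 3 of 82 members were higher, a share near the 3.76% of all genes in that fit. Without phlebotomy 2, the library with transgene counts, the median was 0.46 and 46 members were higher at an unadjusted p under 0.05, against 12.1% of all genes in that fit. That fit called 4.74% of all genes after adjustment and 0 members, the smallest adjusted p of a member being 0.0602. Without phlebotomy 4 the median was 0.45, and 31 members were higher at an unadjusted p under 0.05, against 4.62% of all genes. Leaving out a control library gave medians of 0.33 to 0.35. The count at an unadjusted p under 0.05 also fell when any 1 control library was left out. It was 7 of 82 without control 1 (4.91% of all genes higher), 2 without control 2 (4.79%) and 10 without control 4 (6.60%). Without control 2 the members' share was thus no higher than that of all genes.

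Fold changes also went with transcript length and GC content over all genes tested. Members have a median mRNA length of 704 bases, against 2246 bases for all protein-coding genes tested. Their median GC content is 51.7%, against 50.8% for those genes. Over all genes tested, Spearman's rho between log2 fold change and length was -0.22, and per library the rho between a gene's deviation and its length was -0.31, -0.01 and 0.04 in phlebotomy 1, 2 and 4, against 0.15, 0.21 and 0.06 in control 1, 2 and 4. For GC content the rho with log2 fold change was -0.25, and the rho per library was -0.22, 0.20 and -0.30 in phlebotomy 1, 2 and 4, against 0.05, 0.11 and 0.30 in control 1, 2 and 4. Among the 82 members alone, the rho with log2 fold change was -0.14 for length and 0.05 for GC content. With the trend in length and GC content removed, the median log2 fold change of the members was 0.26, 77 of 82 lay above 0, and 18 members were higher at an unadjusted p under 0.05, against 6.13% of all genes. On that scale the members' median centred level was 0.40, -0.09 and 0.04 in phlebotomy 1, 2 and 4, against -0.11, -0.12 and -0.13 in control 1, 2 and 4. Mitochondrially encoded RNA, a further sign of library composition, held 2.29%, 1.41% and 1.33% of counts in phlebotomy 1, 2 and 4, against 1.59%, 1.13% and 1.33% in control 1, 2 and 4. The part of these library properties in the family's difference beyond that trend was not tested.

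Among the small-subunit proteins, Rpsa, Rps27a, Rps18, Rps16 and Rps2 were among the 10 members with the smallest p. Rpsa, also known as a laminin receptor (ENSMUSG00000032518, GRCm38 chromosome 9, 120127689 to 120132369), was at 289, 196 and 219 CPM in phlebotomy 1, 2 and 4, against 147, 159 and 184 CPM in control 1, 2 and 4. The groups did not overlap, phlebotomy 1 was highest, and the log2 fold change was 0.52 ± 0.18 (SE; adjusted p = 0.217), or 0.37 without phlebotomy 1. Rps27a, translated as a fusion with ubiquitin, was at 226, 122 and 143 CPM in phlebotomy libraries, against 113, 113 and 106 CPM in control libraries, a log2 fold change of 0.57. Rps2, at the mRNA entry channel, was at 422, 302 and 294 CPM in phlebotomy libraries and 240.0, 250.01 and 254 CPM in control libraries. Rps18 (log2 fold change 0.54) and Rps16 (0.49) likewise had groups that did not overlap, with phlebotomy 1 highest and phlebotomy 2 lowest among phlebotomy libraries.

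Among the large-subunit proteins, Rpl29, Rpl3, Rpl22 and Rpl36a were in the same 10. Rpl29, also described as a heparin-binding protein, had the smallest p of the family (ENSMUSG00000048758, GRCm38 chromosome 9, 106429454 to 106431568). It was at 73.2, 50.5 and 59.0 CPM in phlebotomy 1, 2 and 4, against 37.9, 42.7 and 47.0 CPM in control 1, 2 and 4, and the groups did not overlap. Its log2 fold change was 0.52 ± 0.18 (SE; adjusted p = 0.216), and 0.38 without phlebotomy 1, the highest of any member in that fit. Rpl3, which reaches toward the peptidyl transferase centre, was at 313, 205 and 269 CPM in phlebotomy libraries and 182, 186 and 187 CPM in control libraries. Its control values lay within 6 CPM of each other, and its log2 fold change of 0.50 was 0.38 without phlebotomy 1. Rpl22, a large-subunit protein needed for T-cell development in mice, was at 98.7, 55.9 and 58.8 CPM in phlebotomy libraries and 49.1, 46.5 and 48.8 CPM in control libraries, a log2 fold change of 0.56. Rpl36a had a log2 fold change of 0.56, with phlebotomy 1 at 74.2 CPM and the other phlebotomy libraries at 39.6 and 47.0 CPM, against 35.7, 36.0 and 37.3 CPM in control libraries.

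The stalk, formed by Rplp0 with Rplp1 and Rplp2, recruits the GTPases that drive translation. Rplp0 was at 805, 652 and 636 CPM in phlebotomy 1, 2 and 4, against 584, 556 and 565 CPM in control 1, 2 and 4, a log2 fold change of 0.30 with groups that did not overlap. Rplp1 was at 271, 165 and 153 CPM in phlebotomy libraries and 137, 142 and 149 CPM in control libraries, a log2 fold change of 0.46. Rplp2 was at 217, 149 and 129 CPM in phlebotomy libraries and 105, 120.3 and 138 CPM in control libraries, a log2 fold change of 0.44, and here phlebotomy 4 lay below control 4.

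The 19 members that are mutated in human Diamond-Blackfan anaemia all had fold changes above 0, with a median of 0.38, beside 0.37 for the whole family, and 6 higher at an unadjusted p under 0.05, against 7.01% of all genes. Without phlebotomy 1 their median was 0.16, the same as that of the family. Rps19, the gene most often mutated in that anaemia, was at 418, 265 and 288 CPM in phlebotomy 1, 2 and 4, against 239, 248 and 260.5 CPM in control 1, 2 and 4. The groups did not overlap, the lowest phlebotomy library lay within 5 CPM of the highest control library, and the log2 fold change was 0.38 ± 0.19 (SE; adjusted p = 0.340). Rpl5 and Rpl11 bind a small ribosomal RNA and, when unassembled, the p53 regulator Mdm2. Rpl5 was at 183, 117 and 130.1 CPM in phlebotomy libraries and 113, 102 and 106 CPM in control libraries, a log2 fold change of 0.42. Rpl11 was at 126, 77.7 and 82.2 CPM in phlebotomy libraries and 75.3, 77.2 and 76.0 CPM in control libraries, a log2 fold change of 0.32 in which only phlebotomy 1 was clear of the controls by more than 6 CPM. Rps26, at the mRNA exit, had a log2 fold change of 0.43, with 161, 102 and 104 CPM in phlebotomy libraries and 89.5, 85.9 and 97.4 CPM in control libraries. Among 12 p53 target genes, 6 had fold changes above 0 and 6 below, with a median of -0.09, none was called, and Cdkn1a, the cell-cycle inhibitor, was at 533, 750.3 and 547 CPM in phlebotomy libraries and 997, 766 and 787 CPM in control libraries.

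Members with known separate roles lay within the range of the family. Rps6, the substrate of the kinase that mTOR activates, was at 233, 156 and 178 CPM in phlebotomy 1, 2 and 4, against 161, 156 and 158 CPM in control 1, 2 and 4. The groups overlapped at phlebotomy 2 and the log2 fold change was 0.26. Rpl10, among the last proteins to join the large subunit, had a log2 fold change of 0.24, Rpl38, which affects the translation of Hox mRNAs in mice, 0.43, and Rps4x, encoded on the X chromosome, 0.42. Rpl13a, known for a role in silencing inflammatory mRNAs, had a log2 fold change of 0.25 that was -0.01 without phlebotomy 1.

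The paralogs, which the naming rule takes in beside their parent genes, lay mostly at the low end of the family. Rpl39l, a testis-enriched copy of Rpl39, was the 1 member with a fold change below 0: it was at 6.29, 3.65 and 5.88 CPM in phlebotomy 1, 2 and 4, against 8.78, 6.61 and 4.30 CPM in control 1, 2 and 4. The groups overlapped and the log2 fold change was -0.30 ± 0.30 (SE; adjusted p = 0.630). Rpl39 was at 192, 94.7 and 114 CPM in phlebotomy libraries and 93.7, 94.7 and 93.3 CPM in control libraries, a log2 fold change of 0.51. Rpl7l1, a protein of ribosome assembly related to Rpl7, was at 114, 97.8 and 120.2 CPM in phlebotomy libraries and 117, 97.5 and 113 CPM in control libraries. Its groups overlapped, phlebotomy 1 was not its highest library, and its log2 fold change was 0.02, beside 0.28 for Rpl7. Rpl22l1 had a log2 fold change of 0.22 beside 0.56 for Rpl22. Rps27l, a p53-induced gene in human cells, had 0.31 beside 0.19 for Rps27, the 1 pair in which the paralog's value was higher. With the length and GC trend removed, Rps27l was at -0.05, Rps27 at 0.01 and Rpl22l1 at -0.18 on the log2 fold change scale, so the order of the Rps27 pair turned and both paralogs lay below 0. Rpl3l, which in striated muscle takes the place of Rpl3, was near the detection limit, at 1.14, 0.326 and 0.758 CPM in phlebotomy libraries and 0.394, 0.546 and 1.01 CPM in control libraries. The differences between paralog and parent were not tested.

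Level per length differed between members far more than the fold change did. In CPM per kb (kilobase) of median annotated mRNA length, the family's median was 222 in phlebotomy libraries and 167 in control libraries. In control libraries the 4 highest members were Rps14, Rplp0, Rpl41 and Rps27. Rps14 was at 828 in phlebotomy libraries and 669.8 in control libraries, and Rplp0 was at 817 in phlebotomy and 665 in control libraries. Rpl41, the shortest ribosomal protein, was at 721 in phlebotomy libraries and 564 in control libraries, and Rps27 was at 640.0 in phlebotomy and 561 in control libraries. In phlebotomy libraries Rps3, at 652 there and 513 in control libraries, lay above Rps27. The lowest were Rpl3l at 0.717 CPM per kb in phlebotomy libraries and 0.629 in control libraries, and Rps10 at 5.09 in phlebotomy and 4.71 in control libraries. Rpl24 was at 6.12 CPM per kb in phlebotomy libraries and 5.82 in control libraries, and Rpl39l at 7.78 in phlebotomy and 9.69 in control libraries. Annotated transcripts of some members are far longer than their main mRNA, so this order depends on the annotation: Rps20 ranked 76 of 82 per kb of mRNA and 26 per kb of coding sequence. The median annotated length can also be too short: for Rplp0 it was 854 bases, below its longest coding sequence of 951 bases. Rplp0 ranked 2 per kb of mRNA and 9 per kb of coding sequence.

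Rps10 and Rpl24 encode standard proteins of the ribosome, yet their levels were far below those of most members. Rps10, in the head of the small subunit, was at 3.59, 4.36 and 2.40 CPM in phlebotomy 1, 2 and 4, against 3.16, 3.66 and 2.76 CPM in control 1, 2 and 4. Rpl24, at a bridge between the subunits, was at 5.33, 2.87 and 4.23 CPM in phlebotomy libraries and 4.73, 3.93 and 3.16 CPM in control libraries. The groups overlapped for both. In the GENCODE M21 annotation, 71.5% of the exon bases of Rpl24 are shared with Gm28037, 28.2% of those of Rps10 with RPS10-NUDT3 and 53.3% of those of Rpl13a with Gm45713, each on the same strand. Each of these overlapping loci had 0 counts in all 6 libraries. A further 7 members share at least 20% of their exon bases with genes on the opposite strand, such as Rpl35 with Wdr38 (68.3%) and Rpl23a with Tlcd1 (55.4%), and the library kit does not mark strand. The 4 pseudogene rows named for Rps10 held 52.8 CPM in phlebotomy libraries and 39.2 CPM in control libraries, against means of 3.45 CPM in phlebotomy and 3.19 CPM in control libraries for Rps10 itself, whereas Rpl24 had no such row. The part of overlap and pseudogenes in these low counts was not tested, and the levels of both genes are uncertain. Over the 82 members, Spearman's rho between level per kb in control libraries and the share of overlapped exon bases was -0.32, as a description.

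**Figure D3:**
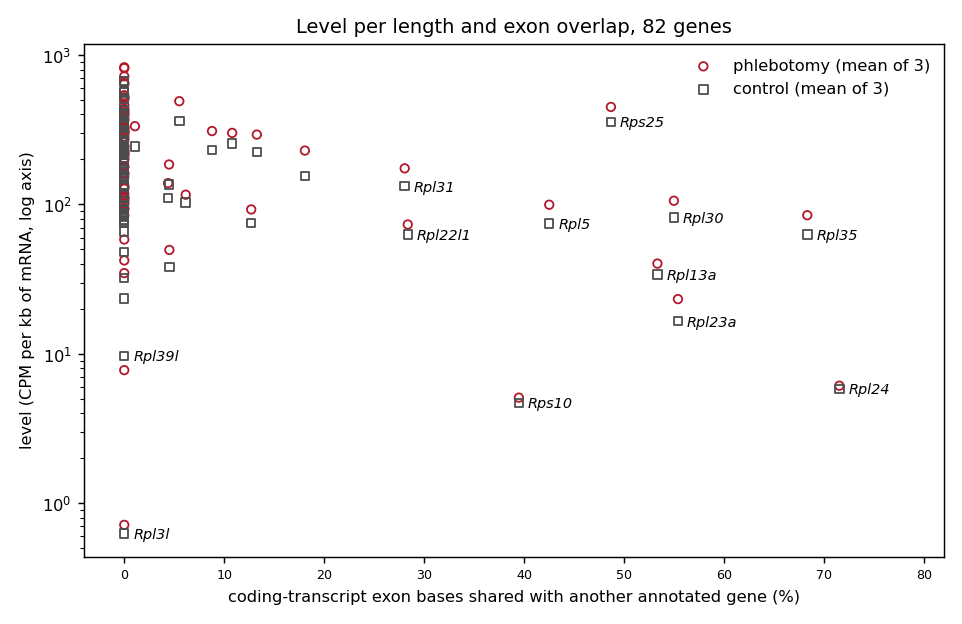
Mean level of each of the 82 genes (CPM per kb of mRNA, log axis) in phlebotomy and control libraries against the share of its exon bases that another annotated gene also covers. Rps10, Rpl24, Rpl23a and Rpl13a have low levels beside large overlaps, whereas Rpl3l and Rpl39l are low with no overlap and Rps25 is high with 48.7% overlap.

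Processed pseudogenes are another source of uncertainty for this family. The count table holds 310 rows named as pseudogenes of 61 members, of which 296 had counts. These rows summed to 2152, 1377 and 1474 CPM in phlebotomy 1, 2 and 4, against 1348, 1256 and 1293 CPM in control 1, 2 and 4, the same order of phlebotomy libraries as the members. Adding each pseudogene to its member gave a median log2 fold change of 0.38 with 30 members at an unadjusted p under 0.05, against 7.06% of all genes higher.

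Lists of related genes differed in direction, and mitochondrial ribosomal proteins, translation factors and snoRNA host transcripts had medians above 0. The 77 mitochondrial ribosomal proteins, which build the ribosome of mitochondria from nuclear genes, had 72 fold changes above 0, a median of 0.30 and 20 higher at an unadjusted p under 0.05, against 7.01% of all genes, with 0 called. Mrpl40 was at 37.7, 25.1 and 24.97 CPM in phlebotomy 1, 2 and 4, against 14.8, 18.8 and 18.5 CPM in control 1, 2 and 4, a log2 fold change of 0.75. Mrpl40, Mrpl42 (log2 fold change 0.68) and Mrps5 (0.64) had the smallest p-values of this list. Phlebotomy 1 was the highest library for 63 of the 77, against 25.3% of all genes tested, and the groups did not overlap, with phlebotomy higher, for 28, against 10.1%. Without phlebotomy 1 the median of this list was 0.16. The 23 translation factors and other proteins with TOP mRNAs had 18 fold changes above 0 and a median of 0.20, which was 0.09 without phlebotomy 1. In that list Eef1d, an exchange factor of elongation, had the smallest p, at 118, 94.9 and 105 CPM in phlebotomy libraries and 76.9, 82.6 and 84.1 CPM in control libraries. Rack1, a scaffold protein bound to the small subunit, was at 427, 288 and 287 CPM in phlebotomy libraries and 257, 238 and 271 CPM in control libraries. The 7 snoRNA host transcripts, which carry TOP starts but make no protein, all had fold changes above 0 with a median of 0.19, which was -0.07 without phlebotomy 1. With the length and GC trend removed, medians were 0.23 for mitochondrial ribosomal proteins, 0.07 for translation factors and -0.14 for snoRNA host transcripts.

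Ribosome assembly factors and growth regulators had medians below 0. Of 33 ribosome biogenesis genes, 10 had fold changes above 0 and 23 below, with a median of -0.09, which was -0.04 without phlebotomy 1. At an unadjusted p under 0.05, 0 of them were higher and 3 lower, a share near the 9.42% of all genes that were lower. Rrp12, an export factor of both subunits, was at 12.2, 16.2 and 13.8 CPM in phlebotomy 1, 2 and 4, against 24.3, 18.5 and 20.6 CPM in control 1, 2 and 4, and its groups did not overlap (log2 fold change -0.58). Nop2, a ribosomal RNA methyltransferase, had a log2 fold change of -0.45, and Polr1a, the largest subunit of RNA polymerase I, -0.44. Of 14 mTOR and MYC regulators, 1 had a fold change above 0 and 13 below, with a median of -0.36, or -0.20 without phlebotomy 1. With the length and GC trend removed, medians were -0.19 for these regulators and -0.12 for the ribosome biogenesis genes. At an unadjusted p under 0.05, 4 of the 14 were lower, against 9.42% of all genes. Myc, a transcription factor that drives ribosome production in many cells, was at 149.9, 165 and 156 CPM in phlebotomy 1, 2 and 4, against 266, 215 and 239.6 CPM in control 1, 2 and 4. All 3 phlebotomy libraries lay below all 3 control libraries, and the log2 fold change was -0.61 ± 0.16 (SE; adjusted p = 0.160). Eif4ebp2, a translational repressor that mTOR inhibits, had a log2 fold change of -0.54, and Tsc1, an inhibitor of mTOR, -0.57, also with groups that did not overlap. None of these genes was called.

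**Figure D4:**
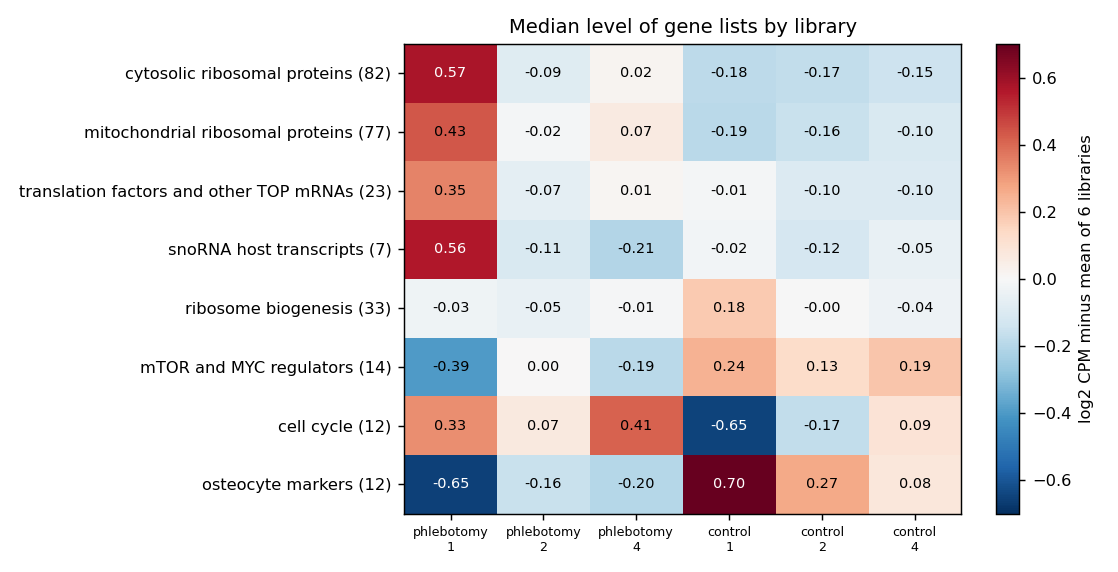
Median log2 CPM of each gene list in each library, after subtracting each gene's mean over the 6 libraries, with the number of genes tested in brackets. Phlebotomy 1 has the highest value for the cytosolic (0.57) and mitochondrial (0.43) ribosomal proteins, and the lowest for the osteocyte markers (-0.65) and the mTOR and MYC regulators (-0.39).

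Cell type markers also differed in direction between lists, with no marker called. All 12 osteocyte markers had fold changes below 0 (median -0.67) and all 12 osteoblast markers likewise (median -0.62), whereas all 12 cell-cycle genes had fold changes above 0 (median 0.49). Erythroid markers had 12 of 17 above 0 (median 0.25), monocyte and macrophage markers 9 of 12 (median 0.15), neutrophil markers 12 of 16 (median 0.06) and B-lineage markers 3 of 11 (median -0.30). Medians were -0.79 for chondrocyte, -0.24 for adipocyte, -0.23 for endothelial, -0.14 for T and NK cell, -0.12 for megakaryocyte, -0.07 for progenitor and 0.16 for skeletal muscle markers, the last summing to 16.4 CPM at most in phlebotomy libraries and 11.3 CPM at most in control libraries. The median centred level of the osteocyte markers was -0.65, -0.16 and -0.20 in phlebotomy 1, 2 and 4, against 0.70, 0.27 and 0.08 in control 1, 2 and 4. Phlebotomy 1 thus had the lowest osteocyte marker level and the highest ribosomal protein level, while control 1, with the highest osteocyte marker level, had a family level of -0.18 on the centred scale, beside -0.17 and -0.15 in the other control libraries. Without phlebotomy 1 the median log2 fold change was -0.34 for osteoblast markers, and without phlebotomy 2 it was -1.0 for osteoblast, 0.12 for erythroid, 0.30 for monocyte and macrophage and -0.53 for B-lineage markers. Cell-cycle genes were at 0.33, 0.07 and 0.41 in phlebotomy 1, 2 and 4, against -0.65, -0.17 and 0.09 in control 1, 2 and 4, a spread among controls that the ribosomal protein genes did not show. The part that a different mix of cells has in the family's difference was not tested.

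Outside the family, the genes whose levels over the 6 libraries lay closest to the family mean were Psma7, Dram2, Cebpzos, C1qb and Swi5, with Pearson's r of 0.999 for Psma7 and 0.997 for Swi5, given as a description over libraries that share depth and composition. Of 14028 protein-coding candidates, 464 (3.31%) had r above 0.9, and 70 of the 82 members did so with the family mean to which they contribute. Psma7, a subunit of the proteasome core, was at 329.7, 217 and 231 CPM in phlebotomy 1, 2 and 4, against 204, 208 and 209 CPM in control 1, 2 and 4. C1qb, a complement gene of macrophages, was at 188, 104 and 118 CPM in phlebotomy libraries and 101, 96.5 and 97.8 CPM in control libraries. In both genes the control libraries lay together and phlebotomy 1 stood above the other phlebotomy libraries, as in the family.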

How the data were processed

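RNA was measured in 3 phlebotomy and 3 control femur libraries. Per the labels' protocols, libraries were made from total RNA by the Nextera XT method, which leaves strand unmarked, and sequenced in paired-end mode. Tools named in the submitters' processing notes are STAR (2.7.3a and 2.5.2a), edgeR, limma and DESeq2, with mm10 and GRCm38.p3 as builds. Which program counted reads, and with which strand setting, is not given in the sources used here. Raw counts per gene were deposited by the authors with a filtered copy and a signal table of TMM-scaled CPM, which gave symbols and biotypes. The 19 rows that name transgene or vector sequences (0.00278% to 0.0284% of counts) stayed out of library sizes and tests.

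Counts were filtered with filterByExpr (minimum count 10), scaled by TMM factors and fitted in edgeR 4.0.16 (R 4.3.3; robust quasi-likelihood, no covariates), with Benjamini-Hochberg adjustment over 18838 genes and a threshold of 0.05. Standard errors (SE) came from each gene's F statistic and are approximate. Levels are CPM on the same TMM factors. The script was tested on simulated data. Alternatives were other scalings, filters, DESeq2 1.42.0, limma 3.58.1, a replicate block, removal of a length and GC trend and leaving out each library. Coordinates and lengths are from GENCODE M21 (GRCm38), in which 99.5% of gene IDs were found; an mRNA length is the median over a gene's coding transcripts. No library pair agreed within sampling noise. The members and lists were chosen with earlier results of these data known. Named members are the 10 with the smallest p, the 4 highest and 4 lowest by fold change and by level per length, the stalk genes with Rpsa, paralogs with their parents, and 10 members with known disease or regulatory roles; of other lists, up to 3 genes by smallest p. Rps20, Rps3, Rpl23a, Rpl35 and Rps25 were named after their values were seen, and a few further members under this rule are left out of the text.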

Additional observations from a re-analysis of the deposited data

Results flagged for a closer look

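Counts of 5 rows for transgene or marker sequences were far higher in phlebotomy 2 than in the other libraries, in a part of the count table that no comparison used. Phlebotomy 2 held 2288 counts of Neo, against 7 and 0 in the other phlebotomy libraries and 0 to 12 in control libraries. The EGFP row held 920 counts in phlebotomy 2, against at most 6 in any other library, and the DsRed row held 403, against at most 1. The Venus row held 75 counts and the mLamp3 row 24 in phlebotomy 2, both against 0 elsewhere. All mice are labelled WT, and the source of these counts was not tested. Phlebotomy 2 also had the lowest level of ribosomal protein genes among phlebotomy libraries, and the family's median log2 fold change was 0.46 without it and 0.37 with it.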

How the results depend on the processing

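No member was called under any of the 22 alternatives, and the median log2 fold change of the members stayed above 0 in each, from 0.16 without phlebotomy 1 to 0.51 with scaling by the total gene count alone. The median of all genes was 0.14 with that scaling, 0.18 without a low-count filter, 0.08 with upper-quartile scaling and -0.08 and -0.07 with limma-trend, so those values are read relative to it. The number of members at an unadjusted p under 0.05, 30 as reported, was 68 with total gene count, 51 with upper-quartile scaling, 51 with a minimum count of 50, 46 with protein-coding genes only, 18 with the length and GC trend removed, 15 without a low-count filter, 14 with limma-voom and 3 with limma-trend at either pseudocount (0.5 and 1). Over the same fits the share of all genes higher at an unadjusted p under 0.05 was 13.0% with total gene count, 10.1% with upper-quartile scaling, 9.28% with a minimum count of 50, 9.01% with protein-coding genes only, 6.13% with the trend removed, 5.78% with no filter, 6.27% with limma-voom, 4.41% with limma-trend at 0.5 and 4.46% with limma-trend at 1. With limma-trend, 3 of 82 members was thus no larger a share than that of all genes. Leaving out 1 library gave 2 to 46 such members. The 2 were without control 2, against 4.79% of all genes higher, and the 46 without phlebotomy 2, against 12.1%. Over the same fits the median log2 fold change was 0.16 to 0.46, and the large minus small subunit median was -0.073 to -0.0078. The column numbers did not pair the libraries (correlations of same-numbered deviations -0.11, -0.11 and -0.06). A replicate block gave a median of 0.33 and 10 members at an unadjusted p under 0.05, against 5.30% of all genes higher. With the trend removed as well there were 7 such members, against 4.70%.

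Some fold changes of members changed sign, and those of members described in the results are given here. Without phlebotomy 1, 8 of 82 members lay below 0, some of them not listed here. With the trend removed, log2 fold changes were -0.068 for Rpl7l1, -0.075 for Rpl24, -0.18 for Rpl22l1 and -0.053 for Rps27l. With the block as well they were -0.067 for Rpl7l1, -0.096 for Rpl24, -0.18 for Rpl22l1 and -0.056 for Rps27l. Limma-trend gave -0.066 for Rpl7l1 and -0.034 for Rpl24 with a pseudocount of 0.5, and -0.066 and -0.029 for the same genes with 1. No low-count filter gave -0.037 for Rpl7l1. Leaving out 1 library gave -0.014 to 0.40 for Rpl13a, -0.023 to 0.33 for Rpl22l1, -0.12 to 0.25 for Rpl24, -0.26 to 0.59 for Rpl3l, -0.082 to 0.065 for Rpl7l1, -0.13 to 0.31 for Rps10 and -0.032 to 0.30 for Rps27. The cause was not tested for any of these. Of 505 list medians under alternatives, 490 moved by less than the spread between libraries. Depth limits Rpl3l, whose log2 fold change had an SE of 0.57.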
